A study of Mus musculus with 9 samples.

Results

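Protein kinase A (PKA) is the main kinase that cyclic AMP (cAMP) switches on, and the transcripts of its subunits, its dedicated inhibitors and the scaffold gene Akap12 were followed here in mouse epidermis after ultraviolet B (UVB) exposure. The genes were taken by symbol: the catalytic subunits Prkaca and Prkacb, the regulatory subunits Prkar1a, Prkar1b, Prkar2a and Prkar2b, the inhibitors Pkia, Pkib and Pkig, and Akap12. Each symbol matched 1 row, giving 10 of the 55536 genes listed. The series title names Hmga2-dependent cAMP signalling as its subject.

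Keratinocyte RNA was profiled by sequencing in 9 mice of 8 weeks of age, 3 per genotype: Hmga2-/-, K5H2 and WT. The Hmga2 protein attaches to stretches of DNA rich in A and T and bends them. All 9 animals carried the same exposure, 2 doses of 20 mJ/cm2 of UVB to the back within 3 days, and skin was taken 24 h after the last dose, in the resting phase of the hair cycle. Overnight floating on 0.25% trypsin freed the epidermis for RNA extraction. No unexposed skin enters a comparison, so every contrast is between genotypes after UVB. The sources used here do not give what the name K5H2 stands for, its promoter or transgene, or which part of Hmga2 is missing in Hmga2-/-. The file headers number the K5H2 animals in another series than the other 6, so the origin of these animals and their genotype cannot be told apart.

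In resting cells a dimer of regulatory subunits holds the catalytic subunits inactive. When cAMP binds the regulatory subunits, active catalytic subunits are freed and phosphorylate targets in the cytoplasm and, after entering the nucleus, the transcription factor CREB. Regulatory and inhibitor proteins block the kinase by placing a stretch that resembles a substrate in its active site, and the PKI inhibitors also carry catalytic subunits out of the nucleus. In skin, cAMP is best known as the messenger of the melanocortin receptor in melanocytes, while in keratinocytes PKA has been tied to the control of growth and differentiation.

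The coding DNA of that blocking stretch is shown for the 7 inhibitory genes, because it is the feature that makes them one functional group. Each run of 45 bases comes from the GENCODE M21 transcripts (GRCm38), 5′ to 3′ in the sense direction, and the 15 capital bases are the 5 codons of the core that occupies the substrate site.
Pkia: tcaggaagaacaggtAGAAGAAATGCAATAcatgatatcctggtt
Pkib: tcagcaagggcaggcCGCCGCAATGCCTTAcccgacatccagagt
Pkig: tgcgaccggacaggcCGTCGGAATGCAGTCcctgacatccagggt
Prkar1a: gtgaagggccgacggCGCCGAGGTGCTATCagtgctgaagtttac
Prkar1b: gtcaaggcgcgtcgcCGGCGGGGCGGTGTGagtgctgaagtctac
Prkar2a: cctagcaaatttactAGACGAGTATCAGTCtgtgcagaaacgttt
Prkar2b: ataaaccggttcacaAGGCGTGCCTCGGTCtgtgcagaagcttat
The stretches lie in annotated coding exons. Those of Pkia (chr3:7437404-7437448), Pkib (chr10:57728158-57728202) and Pkig (chr2:163721190-163721234) are on the plus strand. That of Prkar1a is at chr11:109660092-109660136 on the plus strand and that of Prkar1b at chr5:139108517-139108561 on the minus strand. The type II stretches are each split by an intron, between chr9:108714281-108716879 for Prkar2a (plus strand) and chr12:31993767-32038649 for Prkar2b (minus strand). Identical bases numbered 32 of 45 between Pkib and Pkig, 29 between Pkia and Pkib, and 28 between Pkia and Pkig. Prkar1a and Prkar1b shared 33, Prkar2a and Prkar2b 28, and Prkar1a and Prkar2a 17. Between an inhibitor and a regulatory subunit 9 to 18 of the 45 bases were identical.

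The values are normalized counts that the authors deposited as whole numbers. From the steps between low values, approximate reads in genes ranged from 15.4 M in Hmga2-/- 3 to 40.9 M in WT 3, with 28.1 M the next lowest. Hmga2 itself was at 3, 9 and 7 in Hmga2-/-, at 4, 11 and 0 in K5H2, and at 346, 11 and 56 in WT. WT 2 thus carried no more Hmga2 than the highest value of K5H2. Exact two-sided permutation tests gave p = 0.1 for Hmga2-/- against WT, the smallest that 3 against 3 allow, p = 0.2 for K5H2 against WT and p = 0.7 for K5H2 against Hmga2-/-. The basal keratinocyte gene Krt14 lay between 434658 and 1053123 normalized counts in every library, as the label implies, and the mitochondrial share ranged from 0.279% in Hmga2-/- 3 to 2.15%. Hmga2-/- 3 stood apart from the rest in depth. WT 1 had the highest value of the wound keratin gene Krt6b, at 323404. That gene was at 94151 in WT 2, 240867 in WT 3 and 1331 to 56167 in the Hmga2-/- and K5H2 mice. By Krt6b, WT 2 thus lay further from the other WT mice than WT 1 did. Differences from WT of Prkar2a, Pkib, Pkig and the pathway genes in which WT 1 held the extreme value are given with and without it.

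Relative to transcript length, Prkar1a was the most abundant of the 10 genes and Akap12 the least. Prkar1a, the type I regulatory subunit found in nearly all tissues, averaged 1844 ± 291 normalized counts per kb of annotated exon (SD, n = 9 mice). Prkaca, the catalytic subunit of most tissues, followed at 621 ± 87.2 and Prkar2a, the widely expressed type II regulatory subunit, at 495 ± 89.9. The ranges of Prkaca and Prkar2a overlapped, whereas Prkar1a stayed above both in every mouse.

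The inhibitor Pkig was next at 119 ± 34.4 per kb, then the second catalytic subunit Prkacb at 92.1 ± 16.1 and the inhibitor Pkib at 84.5 ± 25.9. These 3 ranges overlapped, and their order differed between genotypes: Pkib (106 per kb) was above Prkacb (84.1) in Hmga2-/-, and Prkacb (109) above Pkig (99.0) in K5H2. The order also depended on the length used. With the principal transcript Pkib passed Prkacb over the 9 mice, Pkig (596.5) passed Prkar2a (552.5) in Hmga2-/-, and Prkar2a passed Prkaca in K5H2 (633 against 614) and in WT (722 against 711). The third inhibitor, Pkia, averaged 50.1 ± 12.3 per kb and overlapped with Pkib. Prkar2b, a type II regulatory subunit best known in fat and brain, averaged 20.1 ± 7.70 per kb, below every value of Pkia. Prkar1b, which is mainly neuronal, averaged 2.48 ± 1.73 per kb and overlapped with Akap12 at 1.19 ± 0.451. Pkig is the gene whose level depends most on the length chosen: its exons together cover 3.99 kb but its principal transcript 1.06 kb, on which its level was 449 ± 130 per kb.

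**Figure D1:**
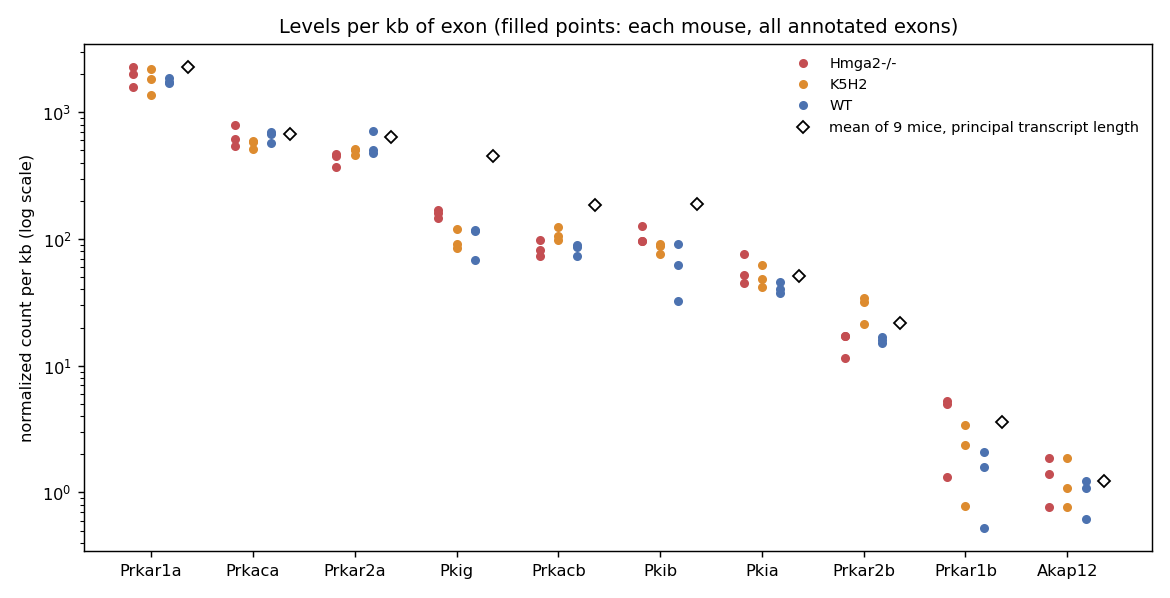
Level of each gene per kb of exon on a log scale, with 1 filled point per mouse (Hmga2-/-, K5H2 and WT from left to right within a gene) and an open diamond for the mean of the 9 mice on the principal transcript length. Prkar1a lies highest at 1844 normalized counts per kb on average and Akap12 lowest at 1.19.

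No member passed the adjusted threshold in any of the 3 genotype comparisons. Testing required a normalized count of 10 or more in 3 or more libraries, and 9 of the 10 members met it. Tests used limma on log2(value + 1) with Benjamini-Hochberg adjustment over 14695 genes and a threshold of 0.05, and fold changes are on that scale, where low genes show less than their true change. In Hmga2-/- against WT 0 members were called, against 0.728% of all tested genes, and 2 had an unadjusted p under 0.05, against 23.7%. In K5H2 against WT 0 were called, against 1.28%, and 2 had an unadjusted p under 0.05, against 18%. In K5H2 against Hmga2-/- 0 were called, against 0.497%, and 3 had an unadjusted p under 0.05, against 21.1%.

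Voom on approximate reads called 0 members in each comparison, against 0.157%, 2.06% and 0.408% of genes in that order, with unadjusted counts of 2, 2 and 3, against 22.1%, 19.9% and 20.2%. By the authors' deposited table, adjusted p values were under 0.05 for 0 of 10 members, against 7.66%, 5.82% and 4.03% of genes, and 2 in each comparison had an unadjusted p under 0.05, against 14.8%, 11.9% and 12.7%. Members whose groups did not overlap numbered 3 in Hmga2-/- against WT, against 29.7% of genes, 2 in K5H2 against WT, against 26.9%, and 3 in K5H2 against Hmga2-/-, against 26.4%. These shares are near the background. The median size of the log2 difference over the 9 members was 0.37, 0.28 and 0.31 in the 3 comparisons, against 0.33, 0.27 and 0.31 over all tested genes. The comparisons share animals pairwise and are not independent of each other.

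**Figure D2:**
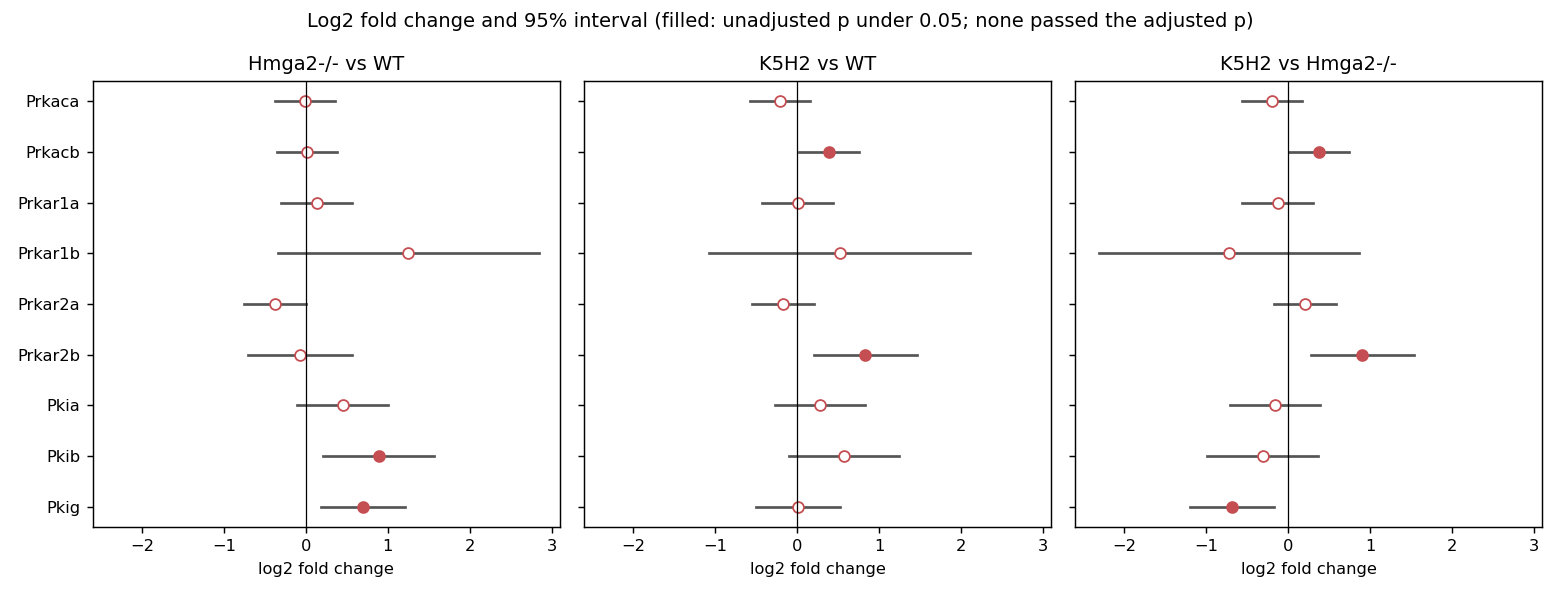
Log2 fold change (point) with its 95% interval (line) for the 9 tested members, 1 panel per comparison, where filled points had an unadjusted p under 0.05. The filled points are Pkib and Pkig in Hmga2-/- against WT, Prkacb and Prkar2b in K5H2 against WT, and Prkacb, Prkar2b and Pkig in K5H2 against Hmga2-/-.

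Of the catalytic subunits, Prkaca overlapped between the genotypes and Prkacb had its highest mean in K5H2. Prkaca (chr8:83972993-83996443) had 1967, 1352 and 1539 normalized counts in Hmga2-/-, 1267, 1487 and 1441 in K5H2, and 1434, 1746 and 1676 in WT. The 3 groups overlapped, and its log2 fold change was -0.01 (SE 0.16, adjusted p = 0.973) in Hmga2-/- against WT, with a 95% interval of -0.38 to 0.35. In K5H2 it was -0.21 against WT (adjusted p = 0.526) and -0.20 against Hmga2-/- (adjusted p = 0.507).

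Prkacb (chr3:146729574-146812990) had 645, 855 and 713 normalized counts in Hmga2-/-, 1084, 928 and 855 in K5H2, and 781, 759 and 647 in WT. Every K5H2 mouse lay above every WT mouse, and the lowest K5H2 value equalled the highest of Hmga2-/-. In K5H2 against WT the log2 fold change was 0.39 (SE 0.16, 95% interval 0.03 to 0.75, adjusted p = 0.248). Against Hmga2-/- it was 0.38 (SE 0.16, 95% interval 0.01 to 0.74, adjusted p = 0.225). In Hmga2-/- against WT it was 0.01 (adjusted p = 0.973), with a 95% interval of -0.35 to 0.37.

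On the per-kb scale Prkacb made up 8.51%, 15.2% and 11.6% of the catalytic subunit transcripts in Hmga2-/-, 19.5%, 15.04% and 14.4% in K5H2, and 13.4%, 11.0% and 9.87% in WT. Prkaca was thus the main catalytic transcript in every mouse. With the principal transcript lengths the mean Prkacb shares were 19.7% in Hmga2-/-, 26.4% in K5H2 and 19.2% in WT. The log2 values of Prkaca and Prkacb ran in opposite directions over the 9 libraries (Pearson r = -0.83), which share genotype groups and differ in depth.

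Of the regulatory subunits, Prkar1a and Prkar2a carried nearly all of the transcripts and overlapped between most groups. Prkar1a (chr11:109649405-109669656) had 6846, 9839 and 8714 normalized counts in Hmga2-/-, 9560, 7911 and 5935 in K5H2, and 8046, 7538 and 7316 in WT. The 3 WT mice lay within the range of Hmga2-/- and within that of K5H2. Its log2 fold changes were 0.13 (adjusted p = 0.683) in Hmga2-/- against WT, 0.01 (adjusted p = 0.991) in K5H2 against WT and -0.13 (adjusted p = 0.724) in K5H2 against Hmga2-/-. The SE was 0.20 in each, and the 95% intervals together covered -0.56 to 0.57.

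Prkar2a (chr9:108689314-108750436) had 3009, 2346 and 2874 normalized counts in Hmga2-/-, 2960, 3196 and 3267 in K5H2, and 4501, 3049 and 3202 in WT. All 3 Hmga2-/- mice lay below all 3 WT mice, narrowly, and WT 1 was the highest of all 9. The log2 fold change in Hmga2-/- against WT was -0.37 (SE 0.17, 95% interval -0.75 to 0.01, adjusted p = 0.217), and -0.20 (adjusted p = 0.612) without WT 1. K5H2 overlapped with both other genotypes, at -0.17 against WT (adjusted p = 0.630) and 0.20 against Hmga2-/- (adjusted p = 0.514).

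Prkar2b (chr12:31958476-32061296) had 42, 63 and 63 normalized counts in Hmga2-/-, 116, 78 and 124 in K5H2, and 55, 61 and 58 in WT. The 3 K5H2 values were above all 6 others, which spanned 42 to 63. The log2 fold change was 0.83 (SE 0.29, 95% interval 0.20 to 1.46, adjusted p = 0.164) in K5H2 against WT. It was 0.90 (SE 0.29, 95% interval 0.27 to 1.53, adjusted p = 0.142) in K5H2 against Hmga2-/-, and -0.07 (adjusted p = 0.891) in Hmga2-/- against WT. For Prkar2b the authors' deposited table lists log2 fold changes of 0.88 in K5H2 against WT (adjusted p = 0.0646) and 0.95 in K5H2 against Hmga2-/- (adjusted p = 0.0600). Without both WT 1 and Hmga2-/- 3 the limma values were 0.79 (adjusted p = 0.257) against WT and 1.00 (adjusted p = 0.140) against Hmga2-/-.

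Prkar2b was a small part of the regulatory pool even in K5H2. Per kb it made up 0.555%, 0.647% and 0.694% of regulatory subunit transcripts in Hmga2-/-, 1.17%, 0.907% and 1.77% in K5H2, and 0.583%, 0.745% and 0.718% in WT. The summed normalized count of 10 of 10 melanocyte markers was 310 to 758 in Hmga2-/-, 663 to 1111 in K5H2 and 420 to 653 in WT. This sum overlapped between K5H2 and Hmga2-/-. No marker was at 0 in all libraries, and 1 was under 10 in all. Within K5H2 the sum was 947, 663 and 1111, in the same order as Prkar2b. With 3 mice an order can coincide without any link. The part of these markers in the Prkar2b values was not tested. In these bulk libraries more cells of a type and more RNA per cell cannot be told apart.

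Prkar1b (chr5:139017306-139150001) had 20, 19 and 5 normalized counts in Hmga2-/-, 13, 3 and 9 in K5H2, and 2, 8 and 6 in WT. It was tested because of the values 20, 19 and 13 alone, so it passed the filter through Hmga2-/- and K5H2. The log2 fold change of 1.25 in Hmga2-/- against WT had an SE of 0.72 and a 95% interval of -0.35 to 2.84 (adjusted p = 0.301), and with 1 mouse left out it ranged from 0.78 to 1.84. These values stand for about 2 to 23 reads a library, too few to show a difference of moderate size. Prkar1b also shares 341 exon bases, or 8.95% of its exons, with Gm15672 on the same strand, and reads there cannot be told apart.

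**Figure D3:**
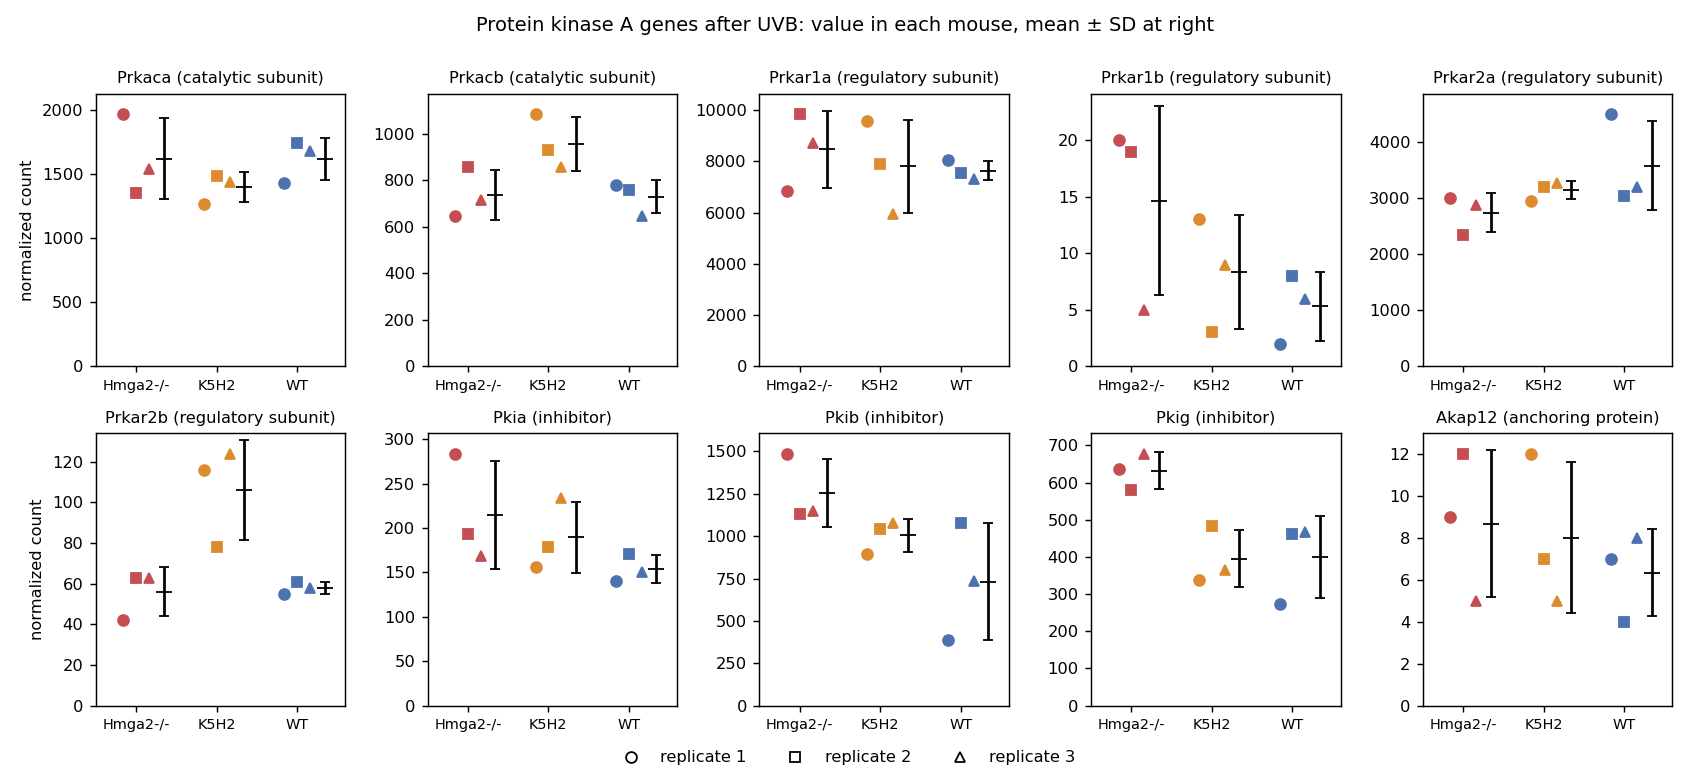
Normalized counts of the 10 genes in each mouse (symbols mark the replicate number), with the mean ± SD of 3 mice at the right of each genotype and all axes starting at 0. K5H2 stands above the other genotypes for Prkar2b (78 to 124, against 42 to 63), and Hmga2-/- for Pkig (580 to 678, against 272 to 482).

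The inhibitor genes had their highest mean values in Hmga2-/-. Pkig (chr2:163658386-163726158), an inhibitor found in many tissues, had 637, 580 and 678 normalized counts in Hmga2-/-, 338, 482 and 365 in K5H2, and 272, 461 and 467 in WT. All 3 Hmga2-/- values lay above all 6 others. The log2 fold change was 0.70 (SE 0.23, 95% interval 0.18 to 1.21, adjusted p = 0.130) in Hmga2-/- against WT. In K5H2 against Hmga2-/- it was -0.69 (SE 0.23, 95% interval -1.20 to -0.18, adjusted p = 0.155). K5H2 and WT overlapped, with a log2 fold change of 0.01 (adjusted p = 0.991) and a 95% interval of -0.51 to 0.52. For Pkig the authors' deposited table lists log2 fold changes of 0.66 in Hmga2-/- against WT (adjusted p = 0.0777) and -0.68 in K5H2 against Hmga2-/- (adjusted p = 0.0942).

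Pkib (chr10:57631981-57741112), an inhibitor first purified from rat testis, had 1488, 1129 and 1148 normalized counts in Hmga2-/-, 895, 1040 and 1078 in K5H2, and 385, 1078 and 734 in WT. The 3 genotypes were ordered by their means, at 1255 ± 202, 1004 ± 96.6 and 732 ± 347 (SD, n = 3 each), and every Hmga2-/- mouse was above every other mouse. In Hmga2-/- against WT the log2 fold change of Pkib was 0.89 (SE 0.31, 95% interval 0.21 to 1.56, adjusted p = 0.137). It was 0.57 (SE 0.31, adjusted p = 0.348) in K5H2 against WT and -0.31 (SE 0.31, adjusted p = 0.571) in K5H2 against Hmga2-/-. For Pkib the authors' deposited table lists a log2 fold change of 0.78 (adjusted p = 0.0949) in Hmga2-/- against WT.

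The Pkib and Pkig differences from WT depended on single WT mice. WT 1 had the lowest value of both genes. Without it the log2 fold change in Hmga2-/- against WT was 0.48 (adjusted p = 0.405) for Pkib and 0.44 (adjusted p = 0.412) for Pkig. Without WT 2 that of Pkib was 1.23 and passed the threshold (adjusted p = 0.0405), while that of Pkig was 0.82 (adjusted p = 0.0916). Without both WT 1 and Hmga2-/- 3 they were 0.54 (adjusted p = 0.599) and 0.39 (adjusted p = 0.675). In K5H2 against WT the log2 fold change of Pkib was 0.17 (adjusted p = 0.754) without WT 1 and 0.91 (adjusted p = 0.0993) without WT 2.

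Sums of markers of other cells also differed between the genotypes. The summed normalized count of 9 bulge markers was 152691 to 321200 in Hmga2-/-, 133524 to 172142 in K5H2 and 37089 to 80170 in WT, most of it Krt15, which keratinocytes outside the bulge also make. That of 9 Langerhans cell markers was 23107 to 44193 in Hmga2-/-, 19910 to 29666 in K5H2 and 9140 to 29549 in WT, and that of 9 epidermal T cell markers 4545 to 5586 in Hmga2-/-, 2163 to 3418 in K5H2 and 1610 to 5211 in WT. The sum of 11 dermal fibroblast markers was 1707 to 2202 in Hmga2-/-, 1520 to 4680 in K5H2 and 622 to 1063 in WT. None of these markers was at 0 in all libraries, but 2 fibroblast markers were under 10 in all. WT 1, lowest for Pkib and Pkig, was lowest in each of these sums. It was highest of all in the sebocyte sum (145356) and the adipocyte sum (1388). The sebocyte sum was 50462 to 60576 in Hmga2-/- and 51845 to 72091 in K5H2. The adipocyte sum was 187 to 356 in Hmga2-/- and 248 to 510 in K5H2, with 4 of its 8 markers under 10 in all libraries. The bulge and fibroblast sums of every Hmga2-/- and every K5H2 mouse lay above those of every WT mouse. The part of these marker sums in the Pkib and Pkig values was not tested.

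Pkia (chr3:7366669-7445366), an inhibitor first purified from rabbit skeletal muscle, had 284, 193 and 168 normalized counts in Hmga2-/-, 156, 179 and 234 in K5H2, and 140, 171 and 151 in WT. The groups overlapped in each comparison. In Hmga2-/- against WT its log2 fold change was 0.45 (SE 0.25, 95% interval -0.10 to 1.00, adjusted p = 0.288), and 0.23 (adjusted p = 0.561) without Hmga2-/- 1, the highest of the 9. It was 0.28 (adjusted p = 0.576) in K5H2 against WT, or 0.12 (adjusted p = 0.855) without K5H2 3, and -0.16 (adjusted p = 0.724) in K5H2 against Hmga2-/-. Over the 9 libraries, which share genotype groups and differ in depth, the log2 values of Pkib ran with those of Pkig (Pearson r = 0.77) and Pkia (0.74) and against those of Prkar2a (-0.78), as a description.

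The balance between inhibitors and catalytic subunits was compared on the per-kb scale, as a description with no test. The summed inhibitor level was 0.419, 0.457 and 0.446 times the summed catalytic level in Hmga2-/-, 0.320, 0.365 and 0.363 times in K5H2, and 0.208, 0.321 and 0.294 times in WT. All 3 Hmga2-/- mice were above all others, WT 1 was lowest, and K5H2 and WT met at 0.320 and 0.321. Pkig and Pkib made up most of the inhibitor sum, at means of 49.4% and 32.9% in Hmga2-/-. The order of the ratio thus largely restates that of these genes. With the principal transcript lengths the means were 1.02, 0.735 and 0.628 in the same order, so the size of the ratio depends on the length used. The summed regulatory level was 3.37 ± 0.895 times the catalytic level in Hmga2-/-, 3.49 ± 0.733 times in K5H2 and 3.23 ± 0.569 times in WT (SD, n = 3 each), differences smaller than the spread between mice.

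**Figure D4:**
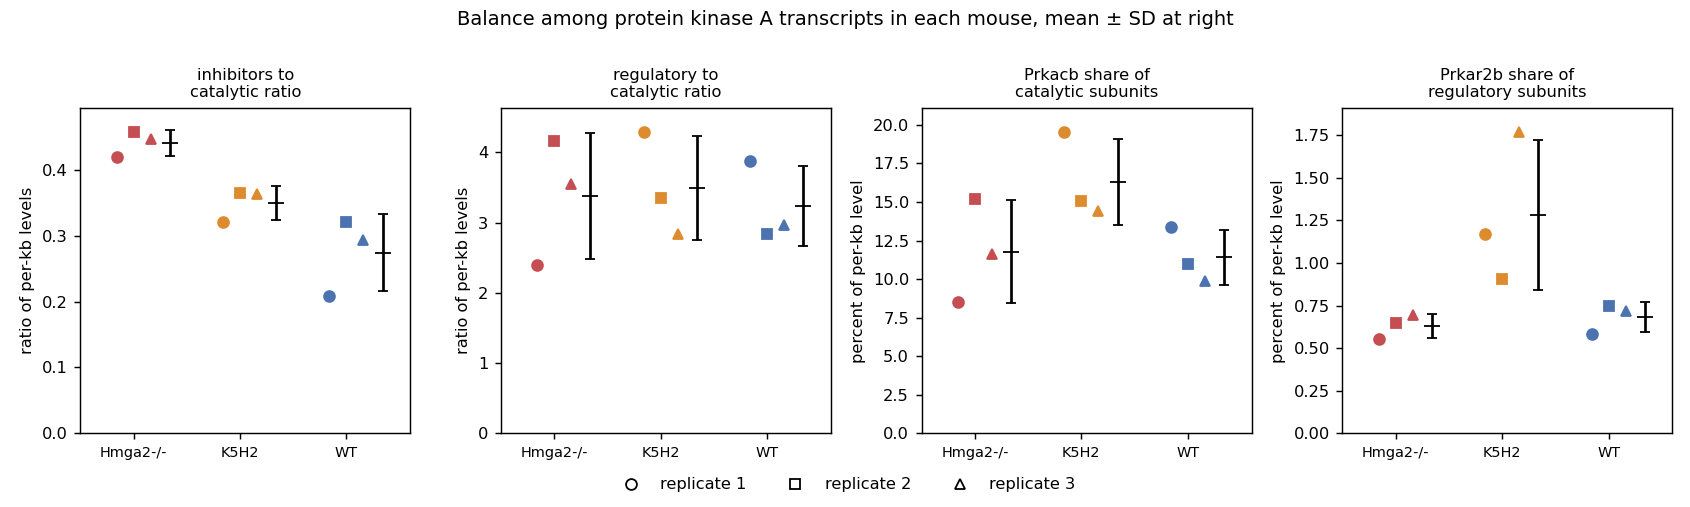
Ratios and shares of per-kb levels in each mouse (symbols mark the replicate number), with the mean ± SD of 3 mice at the right of each genotype. The inhibitors-to-catalytic ratio was highest in the 3 Hmga2-/- mice (0.419 to 0.457), and the regulatory-to-catalytic ratio overlapped in all 3 genotypes.

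Akap12, a scaffold that anchors PKA near the membrane, was close to the detection limit. It had 9, 12 and 5 normalized counts in Hmga2-/-, 12, 7 and 5 in K5H2, and 7, 4 and 8 in WT. It reached 10 in 2 of 9 libraries and was not tested. At about 2 to 13 reads a library no difference could be shown, and none was listed at 0.

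Among the members Prkar2b ranked first in limma's moderated F test over the genotypes (adjusted p = 0.132), and the genes whose profile was most like it were sought. Over the 9 libraries the highest Pearson correlations of log2(value + 1) with Prkar2b among tested genes were 0.978 for Kalrn, 0.974 for Mybl1, 0.966 for Zmym6, 0.962 for Cage1 and 0.958 for Rock1. The normalized counts of Kalrn were 99, 142 and 143 in Hmga2-/-, 255, 205 and 266 in K5H2, and 128, 124 and 124 in WT. Rock1, a kinase gene of the actin cytoskeleton, had 1692, 1864 and 1827 in Hmga2-/-, 2234, 1980 and 2369 in K5H2, and 1890, 1748 and 1796 in WT. Both share the order of Prkar2b within K5H2, with the second mouse lowest. They were picked from all tested genes for their likeness in these same libraries, so this order is no separate observation.

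Promoter windows of RefSeq (GRCm38.p6, 250 bases before to 50 after a start site) were available for 8 of the 10 members, in 24 windows, and were searched on both strands for the cAMP response element that CREB binds. The full element TGACGTCA was found in 2 of 24 windows, both of Prkar1a, against 1.79% of 32851 windows of all genes, or in 1 of 8 members, against 2.03% of 27025 genes. The Prkar1a window is shown because it is the one that holds the element ahead of a start site (chr11:109650699-109650998, plus strand, the element in capitals at chr11:109650900-109650907).
Prkar1a: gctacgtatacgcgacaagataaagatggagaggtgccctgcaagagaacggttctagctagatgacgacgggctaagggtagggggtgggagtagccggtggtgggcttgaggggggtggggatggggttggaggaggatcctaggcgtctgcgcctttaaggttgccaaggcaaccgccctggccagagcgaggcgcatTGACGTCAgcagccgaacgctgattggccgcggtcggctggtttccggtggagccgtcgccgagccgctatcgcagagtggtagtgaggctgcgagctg
The element begins 49 bases before that start site, and the second window is an overlapping one that holds the same bases. The shorter site TGACG, which the full element contains, was in 8 of 24 windows, against 20.8% of all windows. It was in a window of 6 of 8 members, against 23.05% of genes, and the members have more windows each than genes have in general. Prkar1a overlapped between the genotypes, and a match of letters is a description of the window only. The median share of A and T, the bases that Hmga2 prefers in DNA, was 39.3% in the 24 windows, against 47.3% in all windows.

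The rest of the cAMP pathway was read from 6 lists of 95 genes, of which 69 were tested. Limma called 2 of them, both higher in K5H2 than in WT, where it called 1.28% of all tested genes. It called 0 in the other comparisons, with 0.728% of all tested genes in Hmga2-/- against WT and 0.497% in K5H2 against Hmga2-/-. By the authors' deposited table more genes of the lists had an adjusted p under 0.05: 6 of 69 in Hmga2-/- against WT, 8 of 72 in K5H2 against WT and 3 of 70 in K5H2 against Hmga2-/-, against 7.66%, 5.82% and 4.03% of all genes there. Adcy7, an adenylyl cyclase, which makes cAMP, had 186, 168 and 196 normalized counts in Hmga2-/-, 413, 310 and 426 in K5H2, and 175, 218 and 165 in WT. The log2 fold change of Adcy7 was 1.03 (SE 0.20, adjusted p = 0.0424) in K5H2 against WT, 1.05 (SE 0.20, adjusted p = 0.0544) in K5H2 against Hmga2-/- and -0.01 (adjusted p = 0.976) in Hmga2-/- against WT. The melanocyte marker sum followed the same order as Adcy7 over the 3 K5H2 mice, and it overlapped between K5H2 and Hmga2-/-. The bulge and fibroblast sums lay above those of every WT mouse in the Hmga2-/- mice as well as in the K5H2 mice. Their part in the Adcy7 values was not tested. Sik1, a kinase gene that CREB switches on and that PKA in turn inhibits, had 2564, 1878 and 2058 in Hmga2-/-, 2429, 3268 and 3253 in K5H2, and 1194, 1714 and 1646 in WT. Its log2 fold change was 0.98 (SE 0.19, adjusted p = 0.0424) in K5H2 against WT, and 0.52 (SE 0.19, adjusted p = 0.155) in Hmga2-/- against WT. In K5H2 against Hmga2-/- it was 0.46 (SE 0.19, adjusted p = 0.211).

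Both calls in K5H2 against WT are fragile: each gene passed in 9 of 20 alternative settings, with a positive value in all 20. The range of the adjusted p was 0.0301 to 0.192 for Adcy7 and 0.0362 to 0.149 for Sik1. Without WT 1 their log2 fold changes were 1.00 (adjusted p = 0.104) and 0.81 (adjusted p = 0.106). Leaving out WT 3 or any of the 3 K5H2 mice also ended both calls, with adjusted p of 0.0662 to 0.192 for Adcy7 and 0.0758 to 0.149 for Sik1. Hmga2-/- mice enter through the shared spread: the Adcy7 call was lost without Hmga2-/- 1 (0.0570) or 2 (0.0591), and that of Sik1 without Hmga2-/- 2 (0.0571) or 3 (0.0533), as adjusted p. In K5H2 against Hmga2-/- Adcy7 passed without WT 1 (adjusted p = 0.0438). Without WT 1 the log2 fold change of Sik1 in Hmga2-/- against WT was 0.35 (adjusted p = 0.491). Voom also called both in K5H2 against WT, and Mitf beside Sik1 in its list.

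Among 26 other A-kinase anchoring proteins, which tether PKA to places in the cell, 20 were tested and limma and voom called 0 in each comparison. With limma 6 had an unadjusted p under 0.05 in Hmga2-/- against WT, 2 in K5H2 against WT and 6 in K5H2 against Hmga2-/-, against 23.7%, 18% and 21.1% of all tested genes, and voom gave the same numbers. In the authors' deposited table the adjusted p was under 0.05 for 0, 1 (Akap7) and 1 (Akap8) of them in the same order, against 7.66%, 5.82% and 4.03% of all genes there. Their median log2 fold changes were -0.18, 0.19 and 0.31, against -0.01, -0.02 and 0.01 over all tested genes. Positive values numbered 7 of 20 in Hmga2-/- against WT, 17 in K5H2 against WT and 16 in K5H2 against Hmga2-/-. Akap8, a nuclear anchoring protein gene, had 1640, 1393 and 1506 in Hmga2-/-, 2223, 2218 and 2523 in K5H2, and 2366, 1689 and 1830 in WT. In K5H2 against Hmga2-/- its log2 fold change was 0.62 (SE 0.15, adjusted p = 0.105). Akap7, a membrane anchoring protein gene, had 155, 161 and 171 in Hmga2-/-, 201, 176 and 200 in K5H2, and 138, 118 and 113 in WT. Its log2 fold change in K5H2 against WT was 0.64 (SE 0.19, adjusted p = 0.123).

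Of 10 adenylyl cyclases 5 were tested. Limma called 1, Adcy7, in K5H2 against WT, where it called 1.28% of all tested genes, and 0 in the other comparisons. Voom did the same, with 2.06% of all tested genes called in K5H2 against WT. An unadjusted p under 0.05 was found for 1 in Hmga2-/- against WT, 3 in K5H2 against WT and 2 in K5H2 against Hmga2-/- by limma, and for 1, 4 and 2 by voom. The shares of all tested genes were 23.7%, 18% and 21.1% by limma and 22.1%, 19.9% and 20.2% by voom. Adcy7 and Adcy9 had an adjusted p under 0.05 in the authors' deposited table in both K5H2 comparisons, and 0 did in Hmga2-/- against WT. The shares of all genes there were 7.66% in Hmga2-/- against WT, 5.82% in K5H2 against WT and 4.03% in K5H2 against Hmga2-/-. The median log2 fold change of the 5 was 0.06 in Hmga2-/- against WT, 0.74 in K5H2 against WT and 0.47 in K5H2 against Hmga2-/-. Over all tested genes it was -0.01, -0.02 and 0.01 in the same order. All 5 were positive in K5H2 against Hmga2-/-.

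Of 16 cAMP phosphodiesterases, which break cAMP down, 7 were tested. Limma and voom called 0 in each comparison, with 2, 0 and 1 at an unadjusted p under 0.05 in limma and 1, 0 and 1 in voom, in the order Hmga2-/- against WT, K5H2 against WT and K5H2 against Hmga2-/-. The unadjusted shares of all tested genes were 23.7%, 18% and 21.1% in limma and 22.1%, 19.9% and 20.2% in voom. The authors' deposited table also has 0 with an adjusted p under 0.05 in each, against 7.66%, 5.82% and 4.03% of all genes there. Pde4b had 375, 356 and 297 in Hmga2-/-, 504, 470 and 551 in K5H2, and 563, 419 and 427 in WT, with all Hmga2-/- mice lowest. Its log2 fold change was -0.45 (SE 0.18, adjusted p = 0.173) in Hmga2-/- against WT and 0.57 (SE 0.18, adjusted p = 0.141) in K5H2 against Hmga2-/-. Pde7a had 476, 509 and 348 in Hmga2-/-, 447, 489 and 599 in K5H2, and 752, 546 and 558 in WT, and its log2 fold change in Hmga2-/- against WT was -0.48 (SE 0.21, adjusted p = 0.194). WT 1 was the highest of all for both, and without it these differences from WT were -0.31 (adjusted p = 0.512) for Pde4b and -0.33 (adjusted p = 0.548) for Pde7a. Without Hmga2-/- 3 as well they were -0.21 (adjusted p = 0.758) and -0.17 (adjusted p = 0.830).

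Of 9 cAMP sensors other than PKA 5 were tested. Limma and voom called 0 in each comparison, with 2 at an unadjusted p under 0.05 in Hmga2-/- against WT by either tool and 0 in the others. In Hmga2-/- against WT the unadjusted share of all tested genes was 23.7% by limma and 22.1% by voom. It was 18% and 19.9% in K5H2 against WT, and 21.1% and 20.2% in K5H2 against Hmga2-/-. Rapgef3 alone had an adjusted p under 0.05 in the authors' deposited table, in Hmga2-/- against WT. The shares of all genes there were 7.66% in Hmga2-/- against WT, 5.82% in K5H2 against WT and 4.03% in K5H2 against Hmga2-/-. Rapgef3, the cAMP-activated exchange factor Epac1, had 30, 60 and 14 in Hmga2-/-, 64, 69 and 52 in K5H2, and 241, 42 and 107 in WT. Its difference from WT in Hmga2-/- was -1.77 on the log2 scale (SE 0.62, adjusted p = 0.141). The highest value is that of WT 1, and without it the difference was -1.16 (adjusted p = 0.472), while without WT 2 it was -2.41 and passed (adjusted p = 0.0470). Without both WT 1 and Hmga2-/- 3 it was -0.65 (adjusted p = 0.751). Hcn4, a cAMP-gated channel gene, had 38, 76 and 33 in Hmga2-/-, 36, 28 and 41 in K5H2, and 23, 28 and 18 in WT. Its difference from WT in Hmga2-/- was 0.98 on the log2 scale (SE 0.39, adjusted p = 0.170).

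Of 7 kinases and regulators related to PKA 5 were tested, and limma and voom called 0 in each comparison. By either tool 2 had an unadjusted p under 0.05 in Hmga2-/- against WT, 0 in K5H2 against WT and 2 in K5H2 against Hmga2-/-. The shares of all tested genes were 23.7%, 18% and 21.1% by limma and 22.1%, 19.9% and 20.2% by voom. Prkg2 alone of the list had an adjusted p under 0.05 in the authors' deposited table, in Hmga2-/- against WT. The shares of all genes there were 7.66% in Hmga2-/- against WT, 5.82% in K5H2 against WT and 4.03% in K5H2 against Hmga2-/-. Prkg2, a kinase gene of the cyclic GMP pathway, had 2, 2 and 0 in Hmga2-/-, 10, 10 and 7 in K5H2, and 47, 9 and 20 in WT. No Hmga2-/- library reached 10, so Prkg2 passed the filter through WT and K5H2 alone. Its log2 fold change in Hmga2-/- against WT was -3.38 (SE 0.70, adjusted p = 0.0567), a size that depends on the pseudocount at such low values. It was -2.80 (adjusted p = 0.229) without WT 1, the highest, and -2.27 (adjusted p = 0.381) without Hmga2-/- 3 as well, and it passed without WT 2 (-3.93, adjusted p = 0.0249). Pdpk1, the kinase that phosphorylates the activation loop of PKA and its relatives, had 1418, 1262 and 1265 in Hmga2-/-, 1624, 1863 and 2117 in K5H2, and 2478, 1583 and 1698 in WT. All 3 Hmga2-/- mice were below the other 6. Its log2 fold change was -0.52 (SE 0.18, adjusted p = 0.143) in Hmga2-/- against WT and 0.50 (SE 0.18, adjusted p = 0.176) in K5H2 against Hmga2-/-. Without WT 1, the highest of the 9, the first was -0.32 (adjusted p = 0.463), and -0.29 (adjusted p = 0.682) without Hmga2-/- 3 as well.

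The 27 CREB factors and cAMP-response genes were all tested. Limma called 0 in Hmga2-/- against WT, 1 (Sik1) in K5H2 against WT and 0 in K5H2 against Hmga2-/-, and voom 0, 2 and 0. The authors' deposited table has an adjusted p under 0.05 for 4 of the 27 in Hmga2-/- against WT (Atf3, Dusp1, Fosb and Nr4a1), 5 in K5H2 against WT (Atf3, Mitf, Nr4a1, Per1 and Sik1) and 0 in K5H2 against Hmga2-/-. The shares of all genes there were 7.66%, 5.82% and 4.03%. With limma 6, 6 and 8 had an unadjusted p under 0.05, against 23.7%, 18% and 21.1% of all tested genes, and voom gave the same numbers. The median log2 fold change was 0.17, 0.12 and -0.03, against -0.01, -0.02 and 0.01 over all tested genes, and 15, 16 and 13 of 27 were positive. Many of these genes also answer to stress and to tissue dissociation.

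**Figure D5:**
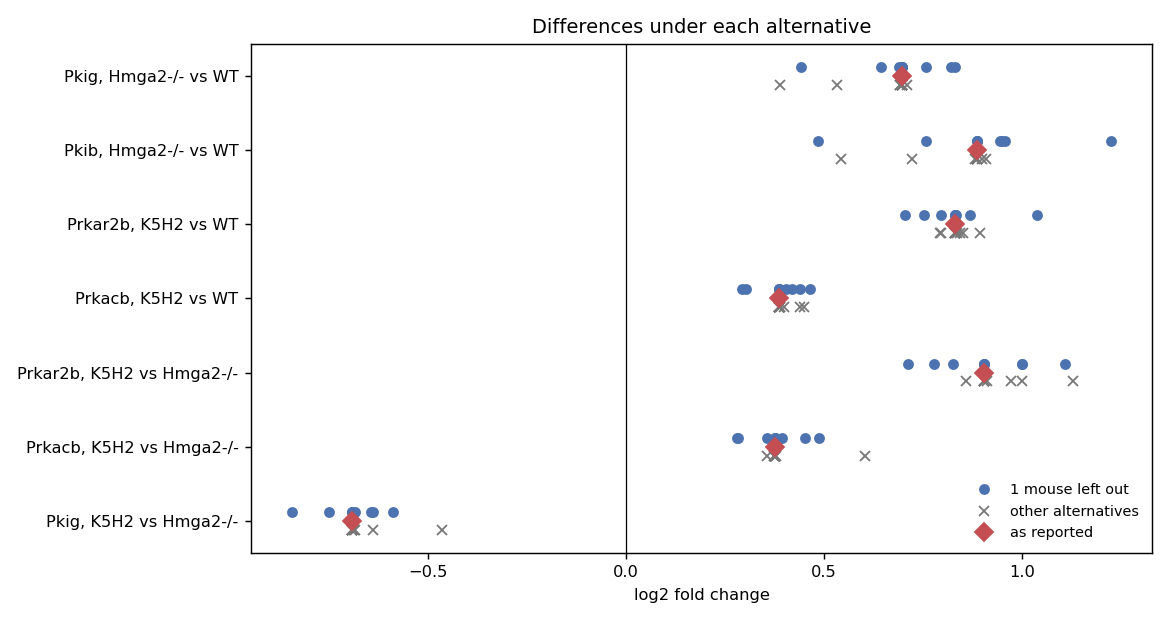
Log2 fold changes of the member differences with an unadjusted p under 0.05, as reported (diamonds), with 1 mouse left out (circles) and under other settings (crosses). All points of a row lie on 1 side of 0, and those of Pkib in Hmga2-/- against WT spread most, from 0.48 without WT 1 to 1.23 without WT 2.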

How the data were processed

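RNA of epidermal keratinocytes was sequenced from 3 mice per genotype. Per the labels' protocols the libraries were directional and made from polyadenylated RNA. The submitters' processing notes name Trim Galore, STAR, DESeq2 and GRCm38, with no versions. The sources used here do not give the strand setting of the counting. The authors deposited normalized counts rounded to whole numbers, handled as a score and not as counts, with log2 fold changes, p-values and adjusted p-values of their own comparisons, per the file headers. Columns of samples outside this series numbered 0.

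The worth of a single read in each library was estimated from genes detected there only, through the authors' unrounded mean, and 100% of these genes fell on whole multiples of it within 0.05 normalized counts. Steps ran from 0.733 to 2.34. Most values are rounded, so reads are approximate and intervals for counting error are not given.

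Genes at 10 or more in at least 3 libraries were tested with limma-trend (limma 3.58.1, R 4.3.3), two-sided, on log2(value + 1), all 9 libraries in 1 fit without covariates. The 95% intervals of fold changes come from this fit, unadjusted for multiple tests. Adjusted p values are Benjamini-Hochberg over all tested genes. The fit was tested on simulated data with 200 changed genes. The labels give 3 animals per genotype, and p-values measure the spread between them.

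Exon and principal transcript lengths came from GENCODE M21, whose loci matched those of all 10 genes. Genes named are the 10 members, Hmga2, of each list the called genes or else the 2 with the smallest p, and the 5 genes most correlated with the member of smallest F-test p, without clone names. Krt14, Krt15, Krt6b, Gm15672, Mitf, Adcy9, Atf3, Dusp1, Fosb, Nr4a1 and Per1 were named after their values were seen. The members and lists were chosen with earlier results of these data known. Other versions were Python 3.11.15, numpy 2.4.6, pandas 2.3.3, scipy 1.17.1 and matplotlib 3.10.9.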

Additional observations from a re-analysis of the deposited data

How the results depend on the processing

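Each value was recomputed under 20 alternatives. Without WT replicate 2, 1 member, Pkib, was called higher in Hmga2-/- than in WT; in every other alternative 0 members were called in any comparison, so with 1 mouse left out the number called higher there was 0 to 1. The number of genes called depended far more on the setting. For Hmga2-/- against WT (107) it was 193 rescaled to the same total, 22 with only the 2 genotypes compared, 23 with voom, 0 without WT 1 and Hmga2-/- 3 together, and 1 to 497 with 1 mouse left out. For K5H2 against WT (188) it was 119 with the filter at 50, 103 with only the 2 genotypes, 303 with voom, 75 without both mice, and 17 to 310 with 1 mouse left out. For K5H2 against Hmga2-/- (73) it was 321 rescaled to the same total, 42 without both mice, and 22 to 213 with 1 mouse left out. The sources do not state that replicate numbers pair the mice. Of 9 same-number pairs 3 correlated above 0.1 (r -0.22 to 0.21), and pairs of different numbers ranged from -0.262 to 0.239. These values neither show nor exclude a pairing. With the replicate number as a block 120 genes were called in K5H2 against WT and 0 of 27 member values, with a smallest adjusted p of 0.123. Adcy7 and Sik1 then missed the threshold in K5H2 against WT (adjusted p = 0.0689 and 0.0624), as they did with no filter (0.0549 and 0.0541) and with only the 2 genotypes (0.0702 and 0.0646). Prkar1b has no value with the filter at 50.

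Directions turned only for small differences, none of them called. Rescaling to the same total shifted the median of all genes by -0.16 in Hmga2-/- against WT, 0.06 in K5H2 against WT and 0.23 in K5H2 against Hmga2-/-. With it Prkacb (-0.15) and Prkar1a (-0.031) turned in Hmga2-/- against WT, and Prkaca (0.030), Prkar1a (0.099) and Pkia (0.062) in K5H2 against Hmga2-/-. Rescaling to the same median turned Prkaca in Hmga2-/- against WT (0.0011). Without WT 1 and Hmga2-/- 3 together Prkar2a (0.0063) and Pkig (-0.25) turned in K5H2 against WT. With 1 mouse left out the log2 fold changes in Hmga2-/- against WT ranged from -0.16 to 0.11 for Prkaca, -0.10 to 0.10 for Prkacb and -0.17 to 0.12 for Prkar2b. In K5H2 against WT they ranged from -0.15 to 0.19 for Prkar1a, -0.27 to 0.0063 for Prkar2a and -0.25 to 0.14 for Pkig, and in K5H2 against Hmga2-/- from -0.29 to 0.055 for Prkar1a and -0.33 to 0.054 for Pkia. The cause was not tested. With 3 mice a group the unadjusted 95% intervals reach 0.36 to 0.67 log2 units to either side for members other than Prkar1b, and log2 differences as large as that of Prkar2b (0.90) did not pass the adjusted threshold. Alternatives for the named genes of the lists were chosen after seeing the data.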
